A study of Mus musculus with 10 samples.

Results

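The genes described here encode the antigen presentation machinery and the immunoproteasome, measured in whole mammary tumors of Tg-neu mice after lovastatin (Lov) or vehicle (Vhcl) treatment. They were chosen by name: every gene whose symbol in the probe annotation begins with H2-, the prefix of the mouse major histocompatibility complex (MHC), together with B2m, Tap1, Tap2, Tapbp, Psmb8, Psmb9, Psmb10, Psme1, Psme2, Erap1, Nlrc5, Ciita, Cd74 and Ctss. This gave 48 genes, of which 36 had a probe set annotated to that gene alone, out of 18193 genes with such a probe set on the array. The other 12 (H2-DMb1, H2-Q4, H2-Q6, H2-Q7, H2-Q8, H2-Q9, H2-T-ps, H2-T9, H2-T10, H2-T22, H2-T23 and Psme2) were read only by probe sets annotated to several genes. Where a gene had several probe sets, the one with the highest mean over the 10 arrays stood for it. The 36 genes were 14 of class I, 4 of peptide loading, 4 of the proteasome, 11 of class II, 2 regulators and H2-Ke6, which carries the prefix but encodes a hydroxysteroid dehydrogenase.

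Lovastatin blocks cholesterol synthesis at HMG-CoA reductase. All tumors came from female FVB/N-Tg(MMTVneu) mice, in which the MMTV promoter drives the rat neu gene mainly in mammary epithelium. From palpation of the first tumor, 5 Lov-treated tumors (AB10, A55, A50, A48 and A19) came from mice given Lov i.p. at 10 mg/kg, 3 times a week for 6 weeks, and 5 Vhcl-treated tumors (AB11, A59, A54, A49 and A45) from mice given ethanol on the same schedule. A free-text label of the Vhcl-treated tumors calls them not treated, and no label ties a tumor to a mouse of its own, so the p-values measure the spread between these tumors. Each array read the RNA of a whole tumor, in which fewer cells of a type and less RNA per cell cannot be told apart.

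Class I molecules, a heavy chain paired with B2m, display peptides from the cell interior on nearly every nucleated cell, where CD8 T cells read them. The peptides are cut by the proteasome, whose catalytic subunits are replaced by Psmb8, Psmb9 and Psmb10 after interferon, carried into the endoplasmic reticulum by Tap1 and Tap2, trimmed by Erap1 and loaded with the help of tapasin (Tapbp). Class II molecules are made mainly by dendritic cells, macrophages and B cells, and travel with the invariant chain (Cd74) to endosomes, where cathepsin S (Ctss) cuts that chain and DM exchanges its remnant for peptides read by CD4 T cells. Nlrc5 and Ciita are the transactivators of class I and class II genes. FVB/N mice carry another H2 haplotype than the reference genome, and heavy chain genes are close copies of one another, so a heavy chain probe set can also read related transcripts.

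The control regions of a few genes show what the classes share in sequence. Of the 36 genes, 25 matched a window in the RefSeq promoter table (build GRCm38.p6). The 250 bases before the annotated start were searched on both strands for 4 short patterns: the Y box core CCAAT bound by the NF-Y factor, GAANNGAAA (of the interferon response element type), TTCNNNGAA (of the interferon-gamma activated site type) and GGGNNTTCC (of the NF-kB type). The 6 regions below, read 5' to 3' in the direction of the named gene with matches in capitals, show a class I light chain and heavy chain, 2 immunosubunits and 2 class II chains.
B2m, chr2:122147437-122147686, plus strand: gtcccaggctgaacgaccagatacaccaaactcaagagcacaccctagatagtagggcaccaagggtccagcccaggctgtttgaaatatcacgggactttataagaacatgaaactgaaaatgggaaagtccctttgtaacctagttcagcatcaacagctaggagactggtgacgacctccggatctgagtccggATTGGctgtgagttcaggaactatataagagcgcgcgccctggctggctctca
H2-K1, chr17:34000348-34000597, minus strand: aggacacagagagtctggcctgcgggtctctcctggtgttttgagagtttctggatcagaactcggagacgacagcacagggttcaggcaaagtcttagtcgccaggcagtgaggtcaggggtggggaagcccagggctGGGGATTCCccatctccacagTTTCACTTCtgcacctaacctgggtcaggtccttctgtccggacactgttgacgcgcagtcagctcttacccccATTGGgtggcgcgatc
Psmb9 to Tap1, chr17:34187331-34187555, minus strand: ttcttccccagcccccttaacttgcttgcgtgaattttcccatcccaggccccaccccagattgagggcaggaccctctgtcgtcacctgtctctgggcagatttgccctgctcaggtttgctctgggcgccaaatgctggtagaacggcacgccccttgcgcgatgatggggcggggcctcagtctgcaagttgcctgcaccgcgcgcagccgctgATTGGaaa
Psmb8, chr17:34197945-34198194, plus strand: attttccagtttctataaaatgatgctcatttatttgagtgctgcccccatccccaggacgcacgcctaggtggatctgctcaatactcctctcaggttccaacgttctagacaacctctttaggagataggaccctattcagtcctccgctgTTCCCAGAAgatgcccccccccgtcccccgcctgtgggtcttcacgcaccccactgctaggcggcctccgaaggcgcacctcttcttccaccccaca
H2-Aa, chr17:34287824-34288073, minus strand: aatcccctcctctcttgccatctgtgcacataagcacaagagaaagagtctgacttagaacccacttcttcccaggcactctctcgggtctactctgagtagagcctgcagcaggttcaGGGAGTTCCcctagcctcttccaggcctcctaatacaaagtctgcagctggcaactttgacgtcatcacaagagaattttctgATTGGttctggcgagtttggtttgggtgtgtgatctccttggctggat
H2-Eb1, chr17:34305617-34305866, plus strand: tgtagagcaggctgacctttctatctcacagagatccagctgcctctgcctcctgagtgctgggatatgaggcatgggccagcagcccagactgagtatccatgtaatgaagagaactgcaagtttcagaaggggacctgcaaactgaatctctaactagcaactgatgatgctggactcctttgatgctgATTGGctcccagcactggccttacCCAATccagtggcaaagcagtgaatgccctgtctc
The Psmb9 region is the whole stretch of 225 bases between the starts of Psmb9 and Tap1, which are transcribed in opposite directions, and its capitals mark a Y box core that serves as a match for both genes. In H2-K1 the NF-kB type match, the interferon response element type match and the Y box core follow one another without overlap. Over the 25 windows, 17 held a Y box core, against 34.5% of the windows of all 27025 genes with one. The interferon response element type was found in 5 (Ctss, H2-D1, H2-K1, H2-M3 and H2-Q10), against 6.34% of all, and the NF-kB type in 4 (H2-Aa, H2-D1, H2-K1 and H2-Oa), against 4.88%. The interferon-gamma activated site type was found in 3 (H2-DMb2, H2-M3 and Psmb8), against 7.18% of all. The patterns are short and fixed, so a window without a match can still hold other forms of these elements. The B2m region, for example, reads gaaactgaaa and gggaaagtccc in lower case, which the patterns do not match. The matches describe letters in these windows and are not measured binding.

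No gene of the presentation machinery passed the test between Lov- and Vhcl-treated tumors after adjustment over all probe sets. The lowest adjusted p among the 36 was 0.928 (limma with Benjamini-Hochberg adjustment), and none of the 45037 probe sets on the array passed (0% of all), although 971 were lower and 1408 higher with Lov at an unadjusted p under 0.05. At that unadjusted threshold 2 of the 36 genes were lower with Lov (H2-T24 and Tap1), against 2.75% of all genes, and 1 was higher (H2-Ob), against 3.5% of all genes. In 0 of the 36 did the Lov-treated and Vhcl-treated tumors occupy separate ranges, against 0.693% of all genes. Counts this small, read beside those shares, are not a result about these genes. The log2 difference, Lov minus Vhcl, was negative for 15 and positive for 21, with a median of 0.041 beside 0.002 over all genes. The signs were not spread evenly over the classes. All 4 peptide loading and all 4 proteasome genes had a negative difference, whereas 10 of 14 class I and 9 of 11 class II genes had a positive one. Centering the arrays on their medians shifted every difference alike, so it could change the sign only of H2-M3 (-0.002) and is no test of these signs. Other settings changed the sign of other genes. Examples are Tapbp without Vhcl A49 (0.10), Erap1 with its probe sets averaged (0.028) and H2-Ea with array weights (-0.10).

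**Figure D1:**
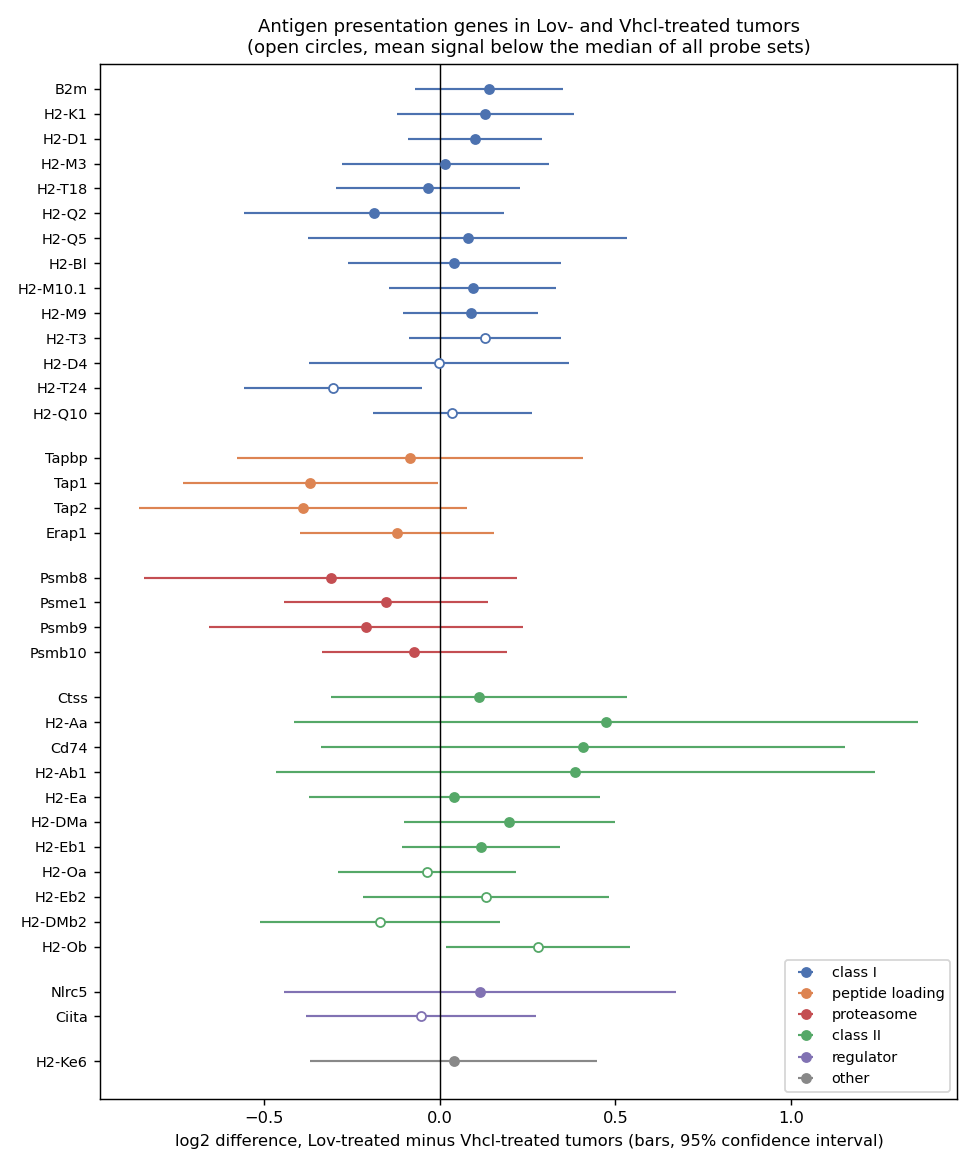
Log2 difference of each of the 36 genes, Lov-treated minus Vhcl-treated tumors (horizontal axis, log2 units), with 95% confidence intervals as bars, colored by class; open circles are genes whose mean signal lay below the median of all probe sets. The intervals of H2-T24, Tap1 and H2-Ob end on one side of 0, and the other 33 cross it.

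The class I light chain and the classical heavy chains had signals near the top of the array's range in every tumor, where a small spread does not show that transcript levels varied little. B2m, the light chain of all class I molecules, read 13.41, 13.21, 13.41, 13.35 and 13.33 log2 units in Lov A19, A48, A50, A55 and AB10, against 12.95, 13.37, 13.23, 13.18 and 13.28 in Vhcl A45, A49, A54, A59 and AB11. It averaged 13.34 ± 0.082 with Lov and 13.20 ± 0.157 with Vhcl (SD, n = 5 each), a log2 difference of 0.14 ± 0.096 (SE), or 1.1-fold (exact permutation test, 2-sided p = 0.103). The groups overlapped, and Vhcl A45 was the lowest of the 10 tumors. H2-K1 and H2-D1, which encode the classical heavy chains, ran close to B2m. The H2-K1 signal was 12.86, 13.18, 13.37, 13.18 and 13.25 in the Lov-treated tumors, against 12.78, 13.19, 13.05, 13.09 and 13.08 in the Vhcl-treated tumors. Its log2 difference was 0.13 ± 0.115 (SE; exact permutation test, 2-sided p = 0.302). H2-D1 averaged 12.87 ± 0.105 with Lov and 12.77 ± 0.091 with Vhcl (log2 difference 0.10 ± 0.087; exact permutation test, 2-sided p = 0.151). For all 3 the lowest Vhcl-treated tumor was A45. For these probe sets the 95% intervals of the difference reached no further than -0.12 and 0.38 log2 units (both for H2-K1).

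All 4 probe sets of H2-K1 and both of B2m had a positive difference, while 6 of the 9 of H2-D1 were positive and 3 negative, so that probe sets of H2-D1 disagreed in sign. The brighter of the 2 H2-D1 probe sets whose names mark no sharing between transcripts had a difference of -0.12. H2-K1 had no such probe set, so its 4 may also read related transcripts. On this array 99.8% of all probe sets had a mean at or below that of H2-D1.

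Among the non-classical class I genes, whose products present restricted sets of peptides or act as ligands of other receptors, the one past the unadjusted threshold was H2-T24. Its log2 signal was 3.72, 3.66, 3.66, 3.58 and 3.79 in the Lov-treated tumors, against 4.00, 4.32, 3.71, 3.82 and 4.08 in the Vhcl-treated tumors. Lov A48, A50 and A55 lay below all Vhcl-treated tumors, and Lov A19 and AB10 between Vhcl A54 and the rest. The log2 difference was -0.30 ± 0.116 (SE; limma, unadjusted p = 0.0232, adjusted p = 0.928; exact permutation test, 2-sided p = 0.0238). The probe set was dim, below the median of all probe sets, and without Vhcl A49 the difference was -0.22 (limma, unadjusted p = 0.0563). H2-M3, which presents formylated peptides, had a log2 difference of 0.016 ± 0.135 (SE), and its signals were 7.09 to 7.67 with Lov and 7.20 to 7.73 with Vhcl. H2-Q2 differed by -0.19 ± 0.169 (SE) and H2-Q10, a secreted class I molecule of the liver, by 0.036 ± 0.103. The remaining class I genes (H2-T18, H2-T3, H2-Q5, H2-Bl, H2-M10.1, H2-M9 and H2-D4) had differences between -0.034 and 0.13. RefSeq lists H2-Q5, H2-Bl and H2-D4 as transcribed pseudogenes of the reference genome. The median over the 14 class I genes was 0.061 with all tumors, 0.009 without Vhcl A45 and 0.099 without Vhcl A49.

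Both chains of the peptide transporter had lower mean signals with Lov. The Tap1 signal, for a chain of the peptide transporter, was 7.87, 7.45, 8.04, 7.28 and 7.28 in the Lov-treated tumors, against 7.73, 8.16, 7.81, 8.18 and 7.88 in the Vhcl-treated tumors. Lov A48, A55 and AB10 lay below all Vhcl-treated tumors, whereas Lov A19 and A50 lay within their range. The log2 difference was -0.37 ± 0.167 (SE), with a mean 1.29-fold higher in Vhcl (limma, unadjusted p = 0.0482, adjusted p = 0.939; exact permutation test, 2-sided p = 0.0873). All 4 Tap1 probe sets had a negative difference, between -0.37 and -0.006, and their mean gave -0.14 (limma, unadjusted p = 0.141). Tap2, the other chain of the transporter, read 7.06, 7.54, 7.82, 7.49 and 7.20 with Lov, against 7.68, 8.60, 7.69, 7.65 and 7.43 with Vhcl. Its log2 difference was -0.39 ± 0.214 (SE; exact permutation test, 2-sided p = 0.143), and Vhcl A49 stood above the other 9 tumors, the next being Lov A50. Without Vhcl A49 the Tap2 difference was -0.19, and with the 3' minus 5' signal of beta-actin, a measure of RNA integrity, as a covariate it was -0.58 (limma, unadjusted p = 0.0158, adjusted p = 0.774).

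Tapasin bridges the transporter and empty class I molecules, and its signals overlapped between the groups. The Tapbp signal was 9.86 to 10.71 with Lov, against 10.00 to 11.12 with Vhcl, where A49 was the highest (log2 difference -0.084 ± 0.225, SE; exact permutation test, 2-sided p = 0.77). Without Vhcl A49 its difference was 0.10. Erap1, the peptidase that trims peptides in the endoplasmic reticulum, averaged 7.16 ± 0.219 with Lov and 7.28 ± 0.177 with Vhcl (SD, n = 5 each), a log2 difference of -0.12 ± 0.126 (SE), and its other probe set had a difference of 0.18, the mean of both being 0.028. The median over the 4 genes was -0.24. It was -0.15 without Vhcl A49 and -0.090 with the probe sets of each gene averaged. With only probe sets whose names mark no sharing, Tap2 dropped out, and the median of the remaining genes was -0.12.

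The negative difference of the immunoproteasome genes depended on single Vhcl-treated tumors, shrinking without A49 and growing without A45. In each of these genes A49 was the highest and A45 the lowest Vhcl-treated tumor, so leaving either out had to move the difference that way. Psmb8 (LMP7), the chymotrypsin-like immunosubunit, read 9.97, 10.04, 10.25, 9.84 and 9.87 in the Lov-treated tumors, against 9.57, 11.25, 10.23, 10.31 and 10.16 in the Vhcl-treated tumors. Vhcl A49 was the highest and Vhcl A45 the lowest of all 10, so that the Vhcl-treated tumors enclosed the Lov-treated ones. The log2 difference was -0.31 ± 0.243 (SE; exact permutation test, 2-sided p = 0.373). It was -0.074 without Vhcl A49 and -0.49 without Vhcl A45. Psmb9 (LMP2), which shares its start region with Tap1, read 8.56, 8.20, 8.83, 8.38 and 8.32 with Lov, against 8.26, 9.44, 8.50, 8.49 and 8.65 with Vhcl. Its log2 difference was -0.21 ± 0.204 (SE; exact permutation test, 2-sided p = 0.484), and it was -0.017 without Vhcl A49. Tap1, transcribed the other way from the same region, differed by -0.32 in those 9 tumors. Psmb10 (MECL-1) differed by -0.072 ± 0.121 (SE), with 8.07 to 8.43 in Lov-treated and 7.99 to 8.57 in Vhcl-treated tumors. Psme1, a subunit of the PA28 activator that interferon also induces, differed by -0.15 ± 0.133 (SE), with 9.73 to 10.15 in Lov-treated and 9.92 to 10.58 in Vhcl-treated tumors. The median over these 4 genes was -0.18 with all tumors, -0.031 without Vhcl A49 and -0.26 without Vhcl A45.

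Each immunosubunit takes the place of a constitutive subunit, and the balance of the pair was compared within each tumor. The Psmb8 minus Psmb5 difference of log2 signals was 0.49, 0.63, 0.61, 0.34 and 0.94 in the Lov-treated tumors, against 0.20, 1.70, 0.81, 0.82 and 0.76 in the Vhcl-treated tumors. The group means differed by -0.26 with all tumors, by -0.046 without Vhcl A49 and by -0.42 without Vhcl A45. The Psmb9 minus Psmb6 difference averaged -1.38 ± 0.213 with Lov and -1.33 ± 0.228 with Vhcl (SD, n = 5 each). The Psmb10 minus Psmb7 difference averaged -2.68 ± 0.257 with Lov and -2.53 ± 0.446 with Vhcl. Each of the 3 balances overlapped between the groups, with 2-sided exact permutation p = 0.389, 0.738 and 0.563 in the order given (0.738 for each after Benjamini-Hochberg adjustment over the 4 pairs tested). The constitutive subunits themselves had log2 differences of -0.054 (Psmb5), -0.16 (Psmb6) and 0.076 (Psmb7). Of 15 other core and cap genes, 0 passed the unadjusted threshold, and their median difference was -0.034.

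**Figure D2:**
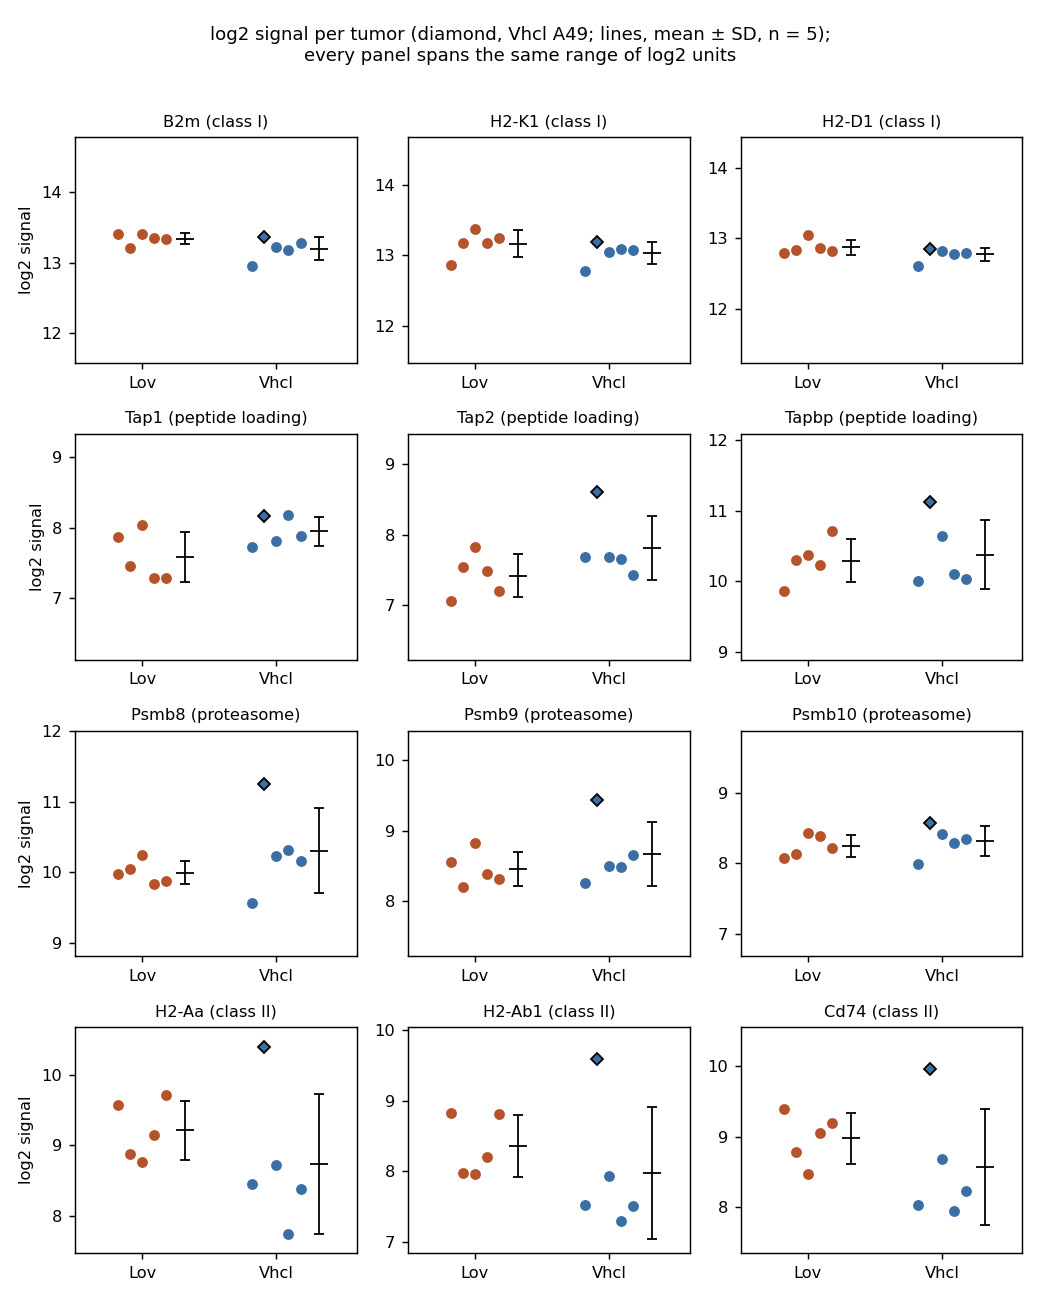
Log2 signal of 12 genes (vertical axis) in each of the 5 Lov-treated (left) and 5 Vhcl-treated (right) tumors, with mean ± SD beside the points and Vhcl A49 as a diamond; every panel spans the same number of log2 units. The points of B2m, H2-K1 and H2-D1 lie close together near the top of the array's range, whereas Vhcl A49 stands above the other Vhcl-treated tumors in Tap2, Psmb8, Psmb9, H2-Aa, H2-Ab1 and Cd74.

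The class II genes had the widest spread of the machinery, and their 3 core genes varied together from tumor to tumor. H2-Aa, the alpha chain of the I-A molecule, read 9.57, 8.88, 8.76, 9.14 and 9.72 in the Lov-treated tumors, against 8.45, 10.40, 8.72, 7.75 and 8.38 in the Vhcl-treated tumors. H2-Ab1, its beta chain, read 8.83, 7.97, 7.96, 8.20 and 8.81 with Lov, against 7.52, 9.59, 7.93, 7.29 and 7.51 with Vhcl. Cd74 read 9.40, 8.78, 8.48, 9.05 and 9.20 with Lov, against 8.04, 9.96, 8.69, 7.95 and 8.23 with Vhcl. In all 3, Lov A19 and AB10 were the highest Lov-treated tumors, Vhcl A49 was the highest of all 10, and Vhcl A59 the lowest of all 10. The log2 differences were 0.47 ± 0.407 (SE) for H2-Aa, 0.39 ± 0.39 for H2-Ab1 and 0.41 ± 0.342 for Cd74, with group means 1.39-, 1.31- and 1.33-fold higher with Lov. None passed the exact permutation test (2-sided p = 0.357, 0.476 and 0.349 in that order).

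With Vhcl A49 left out, the core class II genes passed the unadjusted threshold. The difference of H2-Aa was then 0.89 ± 0.239 (SE; limma, unadjusted p = 0.00354), with every Lov-treated tumor at or above 8.76 and the other 4 Vhcl-treated tumors at or below 8.72. H2-Ab1 gave 0.79 ± 0.217 (limma, unadjusted p = 0.00403) and Cd74 0.76 ± 0.204 (limma, unadjusted p = 0.0037). The lowest Lov-treated tumor was then just above the highest of the other Vhcl-treated tumors for H2-Ab1 (7.96 against 7.93) but below it for Cd74 (8.48 against 8.69). H2-DMa, a chain of the DM peptide exchanger, gave 0.31 ± 0.114 (limma, unadjusted p = 0.0219). H2-Ob and H2-Ke6 also passed the unadjusted threshold, 6 genes in all against 3.08% of all genes in the same 9 tumors, and 0 were lower. The adjusted p was 0.976 for each of the 6, so that none passed over the whole array, and the 9 tumors were not a comparison the study made. Vhcl A49 was the highest tumor in the 3 core genes, so leaving it out had to raise their differences. The p-values of the 9 tumors therefore lend no support to a difference. Without Vhcl A59, the lowest tumor in those genes, the differences were 0.23 (H2-Aa), 0.22 (H2-Ab1) and 0.25 (Cd74).

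The other class II genes were less variable. H2-DMa read 6.47, 6.06, 5.98, 6.07 and 6.03 with Lov, against 5.84, 6.36, 5.84, 5.72 and 5.86 with Vhcl (log2 difference 0.20 ± 0.138, SE; exact permutation test, 2-sided p = 0.206). Ctss, the endosomal protease, differed by 0.11 ± 0.193 (SE), with 10.33 to 11.13 in Lov-treated and 10.17 to 11.17 in Vhcl-treated tumors. H2-Eb1, a beta chain of the I-E molecule, differed by 0.12 ± 0.103 (SE), with 5.41 to 5.76 in Lov-treated and 5.26 to 5.61 in Vhcl-treated tumors. H2-Ea, the I-E alpha chain that RefSeq lists as a transcribed pseudogene of the reference genome, differed by 0.042 ± 0.19 (SE). H2-Ob, a chain of the DO inhibitor of DM that B cells make, was past the unadjusted threshold at a very dim signal. It read 3.31, 3.14, 3.09, 3.29 and 3.10 with Lov, against 2.71, 3.14, 2.62, 2.93 and 3.13 with Vhcl (log2 difference 0.28 ± 0.12, SE; limma, unadjusted p = 0.0378, adjusted p = 0.932; exact permutation test, 2-sided p = 0.0714). Only 8.66% of all probe sets had a mean signal at or below that of H2-Ob. A brighter probe set, shared by H2-Ob and Gm20506, had a mean of 5.135 and differed by -0.006 (limma, unadjusted p = 0.966). The partner chain H2-Oa differed by -0.036 ± 0.116 (SE). H2-Eb2 (0.13) and H2-DMb2 (-0.17) were also dim. The median over the 11 class II genes was 0.13, and over the 7 with a signal above the median of all probe sets, all positive, it was 0.20.

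Class I and class II were set against each other within each tumor through B2m and Cd74, the chains that each class shares. The B2m minus Cd74 difference of log2 signals was 4.01, 4.43, 4.93, 4.30 and 4.13 in the Lov-treated tumors, against 4.91, 3.41, 4.54, 5.23 and 5.05 in the Vhcl-treated tumors. A smaller value means more Cd74 relative to B2m. B2m lay near the top of the array's range (SD 0.082 with Lov and 0.157 with Vhcl), and Cd74 varied more (SD 0.36 and 0.826). The difference therefore mostly follows Cd74 and says little about class I. The group means differed by -0.27 (exact permutation test, 2-sided p = 0.468; 0.738 after adjustment over the 4 pairs). Vhcl A49 had the smallest value of all 10 tumors, and the difference was -0.57 without it, against -0.41 to -0.12 with any other single tumor left out. The tumor means over all class I genes were 6.96 to 7.10 with Lov and 6.86 to 7.16 with Vhcl.

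**Figure D3:**
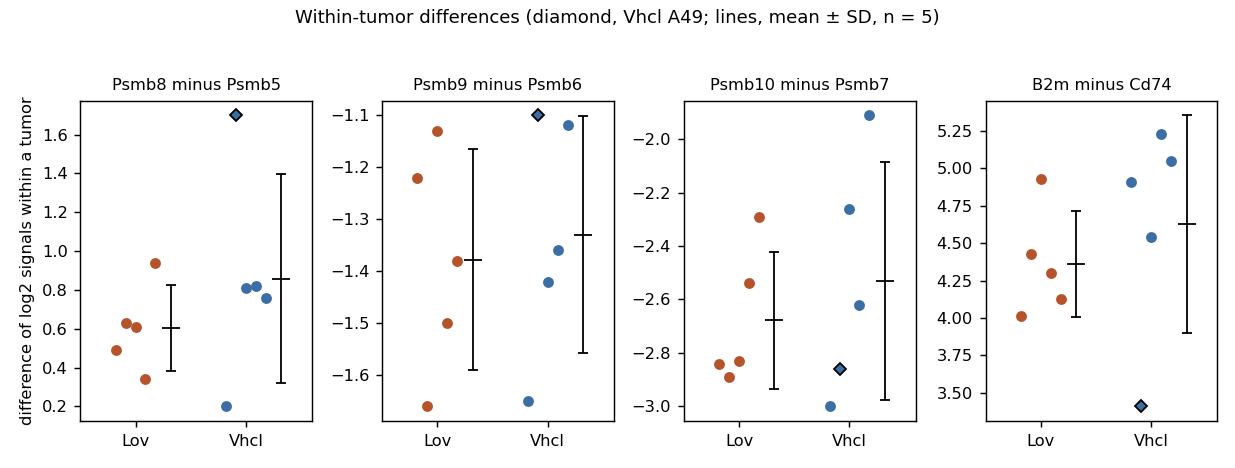
Difference of 2 log2 signals within each tumor (vertical axis, log2 units, scaled separately in each panel) in 5 Lov-treated (left) and 5 Vhcl-treated (right) tumors, with mean ± SD and Vhcl A49 as a diamond. The groups overlap in all 4 panels, and Vhcl A49 is the highest tumor for Psmb8 minus Psmb5 (1.70) and the lowest for B2m minus Cd74 (3.41).

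Vhcl A49 was the highest of the 10 tumors in 15 of the 36 genes and the lowest in 0, whereas Vhcl A45 was the lowest in 9. Among the 27 genes with a signal above the median of all probe sets, A49 was the highest in 14 and A45 the lowest in 8. The mean signal of H2-Aa, H2-Ab1 and Cd74 was 8.40 to 9.27 in Lov-treated tumors and 7.66 to 8.45 in Vhcl-treated tumors other than A49, which reached 9.98. The 6 pan-leukocyte genes (Ptprc, Laptm5, Coro1a, Cd52, Cd53 and Cytip) averaged 7.10 to 7.81 in Lov-treated and 6.73 to 7.94 in Vhcl-treated tumors, with A49 the highest and A45 the lowest of all 10. A49 was also the highest in the mean of 11 macrophage markers (7.46), of 8 mammary epithelial markers (10.23) and of 15 other proteasome genes (10.09). How far leukocyte content or any property of that array accounts for its signals was not tested.

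**Figure D4:**
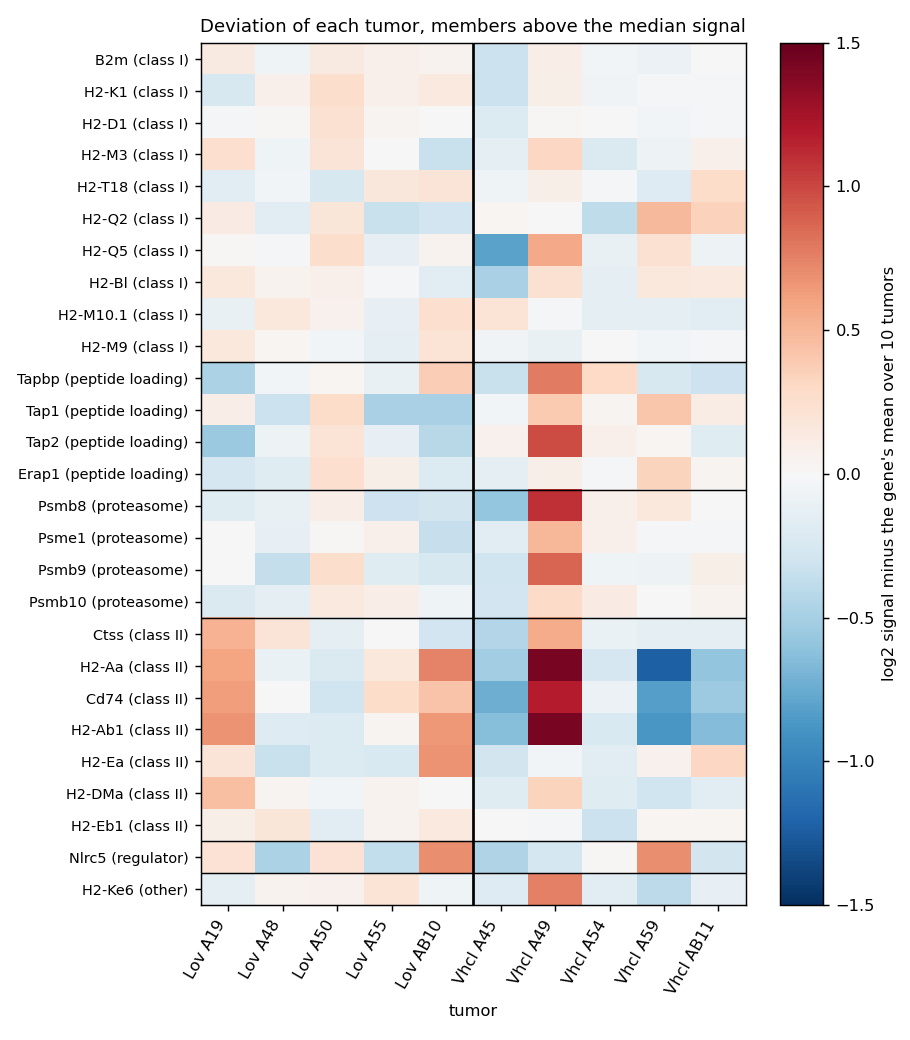
Log2 signal of the 27 genes above the median signal in each tumor minus the gene's mean over the 10 tumors (color, log2 units; red above and blue below), with Lov-treated tumors left of the vertical line and genes grouped by class. Vhcl A49 is red across the peptide loading, proteasome and core class II genes, and Lov A19 and AB10 are red in H2-Aa, H2-Ab1 and Cd74.

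**Figure D5:**
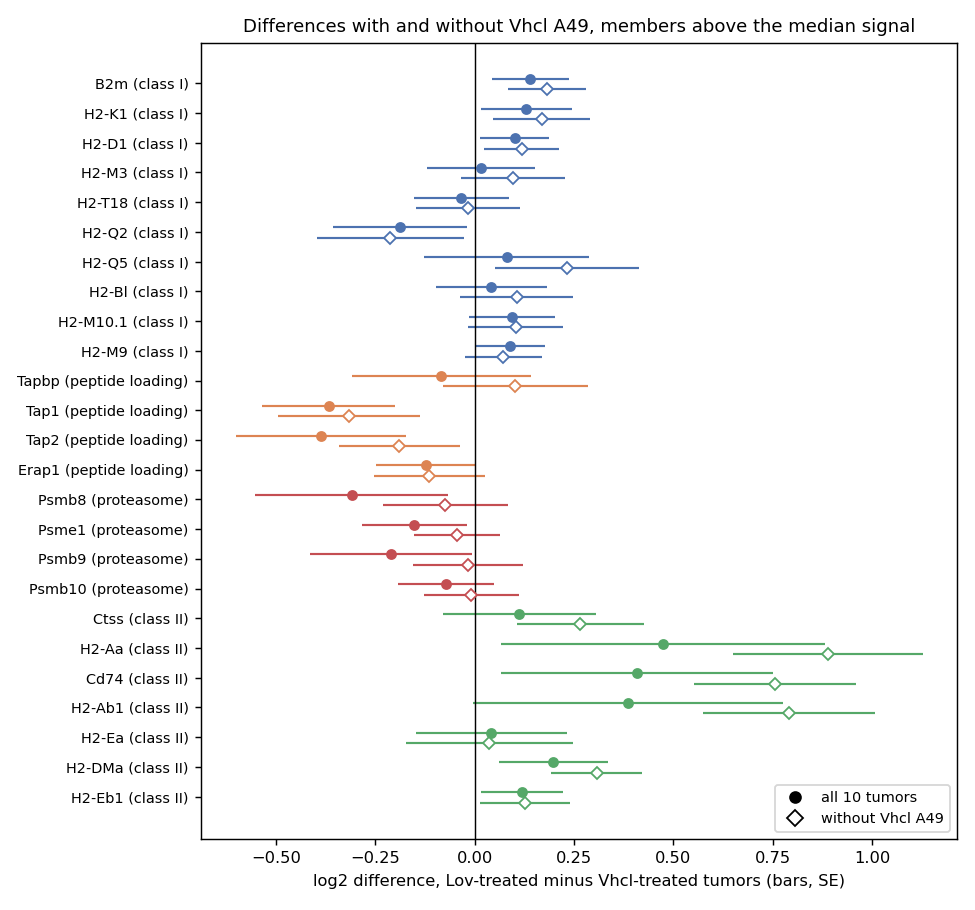
Log2 difference, Lov-treated minus Vhcl-treated tumors (horizontal axis), with all 10 tumors (filled circles) and without Vhcl A49 (open diamonds), for class I, peptide loading, proteasome and class II genes above the median signal; bars are SE. The 4 proteasome differences move close to 0 without A49, whereas those of H2-Aa, H2-Ab1 and Cd74 grow to 0.89, 0.79 and 0.76.

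No regulator or interferon signaling gene upstream of these genes passed the adjusted test (limma, lowest adjusted p = 0.928). Nlrc5 read 6.62, 5.93, 6.62, 6.04 and 7.11 with Lov, against 5.96, 6.14, 6.42, 7.10 and 6.13 with Vhcl (log2 difference 0.11 ± 0.255, SE), and its difference was 0.43 with the beta-actin covariate (limma, unadjusted p = 0.045, adjusted p = 0.78). Ciita, dim in every tumor, differed by -0.054 ± 0.15 (SE). Its signal in Vhcl A49 was 4.40, within a Vhcl range of 4.08 to 4.72. With 39.7% of all probe sets at or below its mean, it cannot show whether Ciita followed the class II genes there. Of the interferon signaling genes listed for comparison, 13 were described here. Ifng, whose product induces both classes, was at 3.30 ± 0.248 with Lov and 3.18 ± 0.06 with Vhcl. That probe set was very dim, with 13% of all probe sets at or below its mean, so it cannot show whether Ifng changed. Irf1, the main mediator of interferon-gamma at presentation genes, differed by -0.038 ± 0.14 (SE). Stat2 and Irf9, which act in type I interferon signaling, were the 2 of the 13 lower with Lov at an unadjusted p under 0.05, and 0 were higher, against 2.75% and 3.5% of all genes. Stat2 differed by -0.49 ± 0.174 (SE; limma, unadjusted p = 0.0166, adjusted p = 0.928) and Irf9 by -0.28 ± 0.114 (limma, unadjusted p = 0.0299, adjusted p = 0.932). The median of the 13 was -0.038.

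In the rest of both pathways no gene passed the adjusted test either. Of 10 other class I pathway genes measured (chaperones, the translocon and class I-like molecules), 1 was lower at an unadjusted p under 0.05, the translocon subunit Sec61a1 (-0.31 ± 0.136, SE; limma, unadjusted p = 0.0441), and 0 were higher, against 2.75% and 3.5% of all genes. Cd1d1, which presents lipids to NKT cells, had the highest difference of that list (0.51 ± 0.244, SE; limma, unadjusted p = 0.0592) and was named after its value was seen. Of 17 other class II pathway genes, 1 was higher, Nfyc (0.45 ± 0.146, SE; limma, unadjusted p = 0.0104), a subunit of NF-Y, and 0 were lower, against the same shares. The other NF-Y subunits differed by 0.030 (Nfya) and -0.29 (Nfyb). The medians were 0.041 for the class I pathway list and -0.096 for the class II pathway list, and the lowest adjusted p over both was 0.919 (limma).

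Markers of cells that carry class II, and of other cells, were measured beside it, and their counts are read against the 2.75% of all genes that were lower and the 3.5% that were higher. Of 11 macrophage markers, Csf1r was higher with Lov (0.43 ± 0.149, SE) and Fcgr1 (-0.34) and Itgam (-0.34) were lower at an unadjusted p under 0.05, with a median of -0.066. Of 9 dendritic cell markers 1 was higher (Cd83, 0.42) and of 7 B cell markers 0, with medians of 0.004 and -0.078. Of 8 T cell markers 1 was higher (Cd3g, 0.51), and of 7 NK cell markers 2 (Klrd1, 0.41, and Prf1, 0.27). None of these passed the adjustment over all probe sets (limma, lowest adjusted p = 0.919). Ptprc, the leukocyte antigen CD45, differed by -0.08 ± 0.226 (SE). The dendritic cell markers averaged 4.74 to 5.00 with Lov and 4.73 to 4.99 with Vhcl, and the B cell markers 4.32 to 4.67 with Lov and 4.36 to 4.83 with Vhcl, both lists near the median signal of all probe sets. The 8 mammary epithelial markers, which define the labelled tissue, had a high mean in every tumor, 9.71 to 9.92 with Lov and 9.78 to 10.23 with Vhcl. Among them Krt19 was dim with Lov (4.67 to 4.95) and ranged from 4.27 to 8.24 with Vhcl. Salivary gland markers, foreign to that tissue, reached a mean of 10.32 in Vhcl AB11, against 3.54 to 5.54 in Lov-treated and 4.20 to 6.95 in the other Vhcl-treated tumors, and muscle markers averaged 8.52 in Lov A55, 8.66 in Vhcl A54 and 8.77 in Vhcl A59, against 4.28 to 6.0 in the other tumors. The part of these neighboring tissues in the differences above was not tested.

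The genes without a probe set of their own were seen only in mixtures. Their 16 shared probe sets, which also cover some genes named above, had log2 differences between -0.23 and 0.56, and 0 reached an unadjusted p under 0.05. The probe set shared by H2-Q7 and H2-Q9, close copies that encode Qa-2, had the highest difference (0.56; limma, unadjusted p = 0.171). The probe set shared by Psme2 and Psme2b, the partner of Psme1 in PA28, had the lowest (-0.23; limma, unadjusted p = 0.0795). The brighter of the 2 probe sets shared by H2-T23 and H2-T-ps differed by 0.11 (limma, unadjusted p = 0.621).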

How the data were processed

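Whole mammary tumors were profiled on Affymetrix mouse whole-genome GeneChips, 1 array per tumor (5 Lov, 5 Vhcl). The authors summarized and normalized the raw intensities by RMA with the affy package, and the deposited log2 signals carry 2 decimals. The version is not given in the sources used here. Groups, dose and schedule came from the labels.

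After removal of 64 control probe sets, 45037 were compared between the groups by limma 3.58.1 in R 4.3.3 (2-sided, default moderation) and Benjamini-Hochberg adjustment across the whole array. An annotation of the platform gave 1 gene symbol to 34945 probe sets, several to 932 and none to 9160, and all 36 members matched RefSeq. Single values were tested exactly over 252 assignments of the tumors (smallest p 0.00794). The array medians were 4.97 to 5.05, and Pearson's r between arrays over all probe sets was 0.981 to 0.99 within Lov and 0.972 to 0.98 within Vhcl. The number of arrays limits the precision. Full values were given for the core genes of each class and for members past the unadjusted threshold, and of the comparison lists for genes past it and a few more chosen by name. The members, lists and tests were chosen with earlier results of these data known. Alternatives covered the prior, weights, scaling, covariates, probe set choice and left-out tumors. The fit was tested on simulated data.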

Additional observations from a re-analysis of the deposited data

Results flagged for a closer look

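For each of the 36 genes and the 4 within-tumor pairs, the highest and lowest of the 5 tumors of a group were set against the other 4, for 80 sets of values in all. In 9 of them, all for single genes, a tumor stood apart, where chance gives about 5%, and 5 different tumors were involved. The 80 sets share tumors and related genes and are not independent, so the 9 are no test against that share. Vhcl A49 stood above the other Vhcl-treated tumors in Tap2 (8.60, against 7.43 to 7.69 in the others), H2-Ab1 (9.59, against 7.29 to 7.93), H2-DMa (6.36, against 5.72 to 5.86) and H2-Ke6 (8.12, against 6.97 to 7.24). Vhcl A45 stood below the others in H2-D1 (12.61, against 12.78 to 12.84) and above them in H2-DMb2 (4.68, against 4.03 to 4.14), a dim probe set. Vhcl A54 was low in H2-Eb1 (5.26, against 5.56 to 5.61). Among Lov-treated tumors, A50 stood above the others in H2-D1 (13.05, against 12.79 to 12.86) and A19 in H2-DMa (6.47, against 5.98 to 6.07).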

How the results depend on the processing

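No member passed an adjusted p of 0.05 under any alternative run. The count of members lower with Lov at an unadjusted p under 0.05 was 1 in place of 2 with a trended robust prior, with array weights, with a 2-sample test without moderation, with probe sets averaged per gene, over members above the median signal, and without Lov A19 and Vhcl AB11. Tap1 lost the unadjusted threshold in 12 settings, H2-Ob in 8 and H2-T24 in 5. With the beta-actin 3' minus 5' covariate the counts stayed at 2 and 1 but held H2-T24, Tap2 (-0.58) and Nlrc5 (0.43). The count of members higher was 0 in place of 1 with arrays centered on their median and over members above the median signal. Leaving out 1 tumor at a time gave 0 to 3 members lower and 0 to 6 higher, 6 without Vhcl A49. Psmb8 minus Psmb5 then ran from -0.421 to -0.046 (without Vhcl A49), Psmb9 minus Psmb6 ran from -0.128 to 0.022, Psmb10 minus Psmb7 from -0.265 to 0.007 and B2m minus Cd74 from -0.572 to -0.117, and Psmb10 minus Psmb7 was 0.048 without Lov A19 and Vhcl AB11. An alternative chosen after seeing the data, without Vhcl A49 and Lov A19, gave 0 members lower and 6 higher, with H2-Aa at 0.80 (limma, adjusted p = 0.72). The medians of class I and class II stayed positive and those of peptide loading and the proteasome negative in each setting that left out 1 tumor. The cause of these shifts was not tested. No paired analysis was possible because the labels give no shared replicate numbers.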
